A study of Mus musculus with 16 samples.

Results

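The genes described here are 9 genes that mark monocytes and macrophages (Spic, Vcam1, Hmox1, C1qa, Adgre1, Csf1r, Lyz2, Cd68 and Cd14), out of 18232 genes in the deposited tables. They were chosen as lineage genes, red pulp macrophage genes included, and not by a threshold on their values. All 9 were listed and passed the filter on low values both in the table of plasmacytoid dendritic cells (pDCs) and in that of conventional DCs (cDCs). RNA-seq covered 16 libraries of DCs sorted from the spleen of C57BL/6 mice aged 6 to 8 weeks. WT mice carried Trim33 fl/fl without Cre, and cKO mice carried Trim33 fl/fl with Itgax-Cre, so both genotypes had the floxed alleles and Cre was driven by the promoter of Itgax, the gene of CD11c. Each genotype had 3 libraries of pDCs, 2 of cDC1s and 3 of cDC2s. For sorted splenic DCs the study gives gates of CD11c and SiglecH for pDCs, and for cDCs of CD11c and MHC II without SiglecH, split into cDC1s by CD24 and cDC2s by CD172a. The lineage cocktail used to enrich splenic DCs was directed at B cells, T cells, erythroid cells and neutrophils, and holds no antibody to F4/80 or to the CSF1 receptor. Each library was a biological repeat made from the cells of several mice, more of them for cKO than for WT libraries, so the spread between replicates is that between pools and not between single mice.

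Macrophages of the splenic red pulp engulf aged erythrocytes and recycle the iron of their heme. Their development depends on SPIC, a transcription factor of the PU.1 subfamily. Heme releases the repressor BACH1 from Spic and from Hmox1, whose product heme oxygenase 1 opens the heme ring. VCAM1, an adhesion molecule that binds the integrin α4β1, is a surface marker of the same macrophages. Of the other genes, C1qa encodes a chain of the complement component C1q, Adgre1 encodes F4/80, Csf1r the receptor of CSF1 and IL-34, Lyz2 the lysozyme of myeloid cells, Cd68 a lysosomal membrane protein, and Cd14 a coreceptor that hands lipopolysaccharide to TLR4. Several of these genes, Csf1r, Cd68 and Lyz2 among them, are also known to be transcribed in DCs.

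Values are TPM, a level per transcript length that sums to the same total in every library. The log2 fold change (log2FC) is that of log2(TPM + 1), cKO over WT unless stated. Called genes had a limma p, adjusted by Benjamini-Hochberg over all genes tested, that did not exceed 0.01, and a log2FC of 0.5 or more in size. The depth, estimated from the files, was 18.2 to 20.24 M reads a library. At these depths the 9 genes had from about 21 reads (Spic in cKO cDC1 library 1) to about 32023 (Lyz2 in cKO cDC2 library 3), estimates that assume the longest transcript and carry counting error. The 8 pDC genes reached 17003 to 17349 TPM in WT pDCs against 171 to 186 in WT cDC1s and 223 to 267 in WT cDC2s, the 8 cDC1 genes reached 2518 to 2531 TPM in WT cDC1s against 209 to 253 in WT cDC2s, and the 8 cDC2 genes reached 1392 to 1455 TPM in WT cDC2s against 39.3 to 57.96 in WT cDC1s. The cDC2 list did not set cDC2s far from pDCs, in which it reached 1193 to 1293 TPM in WT and 1293 to 1384 in cKO libraries, and the cKO ranges of pDCs and cDC2s (1320 to 1525) overlapped. Trim33, the targeted gene, was lower in every cKO library than in every WT library of its subset. The log2FC of Trim33 was -1.01 (adjusted p 0.000349) in cDC1s, -1.17 (adjusted p 0.000126) in cDC2s and, short of the threshold, -0.68 (adjusted p 0.0301) in pDCs.

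The 250 bases before the transcript start were held in the RefSeq promoter table (GRCm38.p6) for 3 of the 9 genes. They are shown for Spic and Lyz2, which had the largest called changes in cDC1s and in cDC2s among the 9, and for Cd68, which was called in no genotype comparison. Capitals mark GAGGAA, the core of many PU.1 sites, which was searched on both strands.
Spic, chr10:88683024-88683273, minus strand: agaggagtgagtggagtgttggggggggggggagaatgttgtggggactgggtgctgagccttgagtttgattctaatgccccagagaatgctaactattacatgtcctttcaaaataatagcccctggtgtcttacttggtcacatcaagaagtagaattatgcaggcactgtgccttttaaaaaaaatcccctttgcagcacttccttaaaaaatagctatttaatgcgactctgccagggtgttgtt
Lyz2, chr10:117282273-117282522, minus strand: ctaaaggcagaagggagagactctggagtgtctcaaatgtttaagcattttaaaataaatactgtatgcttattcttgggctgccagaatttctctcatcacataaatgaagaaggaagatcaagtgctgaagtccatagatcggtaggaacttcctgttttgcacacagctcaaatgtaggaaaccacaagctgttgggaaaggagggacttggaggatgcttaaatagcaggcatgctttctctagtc
Cd68, chr11:69666171-69666420, minus strand: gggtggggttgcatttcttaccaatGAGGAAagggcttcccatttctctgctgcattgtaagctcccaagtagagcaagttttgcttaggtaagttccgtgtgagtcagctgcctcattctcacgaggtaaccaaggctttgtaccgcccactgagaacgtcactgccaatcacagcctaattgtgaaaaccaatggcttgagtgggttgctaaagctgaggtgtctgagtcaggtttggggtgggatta
Cd68 held 1 match, 225 bases before the start, and Spic and Lyz2 held 0 in these windows. Of 32851 promoters of the same length in the table, 23.3% held the motif on either strand.

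In wild-type cDCs most of the 9 genes were higher in cDC2s than in cDC1s. Of the 9, 6 were higher and 0 lower in WT cDC2s than in WT cDC1s, in a comparison in which 31.7% of 11411 genes were called and whose overall median log2FC was 0.17 (-0.01 under median-of-ratios scaling, which turned 2371 higher and 1241 lower calls over all genes into 1718 and 1815). Adgre1 differed most, with a log2FC (cDC2 over cDC1) of 5.31 (adjusted p 1.17e-09, SE 0.11). Csf1r followed with 3.62 (adjusted p 9.56e-08, SE 0.17) and C1qa with 3.09 (adjusted p 4.21e-05, SE 0.35). The differences of Spic, 1.51 (adjusted p 0.00155, SE 0.29), of Lyz2, 0.98 (adjusted p 0.00887, SE 0.25), and of Cd68, 0.63 (adjusted p 0.00167, SE 0.12), were smaller. Lyz2 was called in 6 of 19 other settings and Cd68 in 17. Without WT cDC1 library 2 the values were 1.21 for Spic (adjusted p 0.0205) and 0.56 for Cd68 (adjusted p 0.0202), and without WT cDC1 library 1 it was 0.57 for Lyz2 (adjusted p 0.104). Under median-of-ratios scaling Cd68 was at 0.43, under the size threshold. Vcam1, with 0.89 (adjusted p 0.0672, SE 0.36), Hmox1, with 0.48 (adjusted p 0.48, SE 0.53), and Cd14, with -0.06 (adjusted p 0.928, SE 0.43), did not pass.

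**Figure D1:**
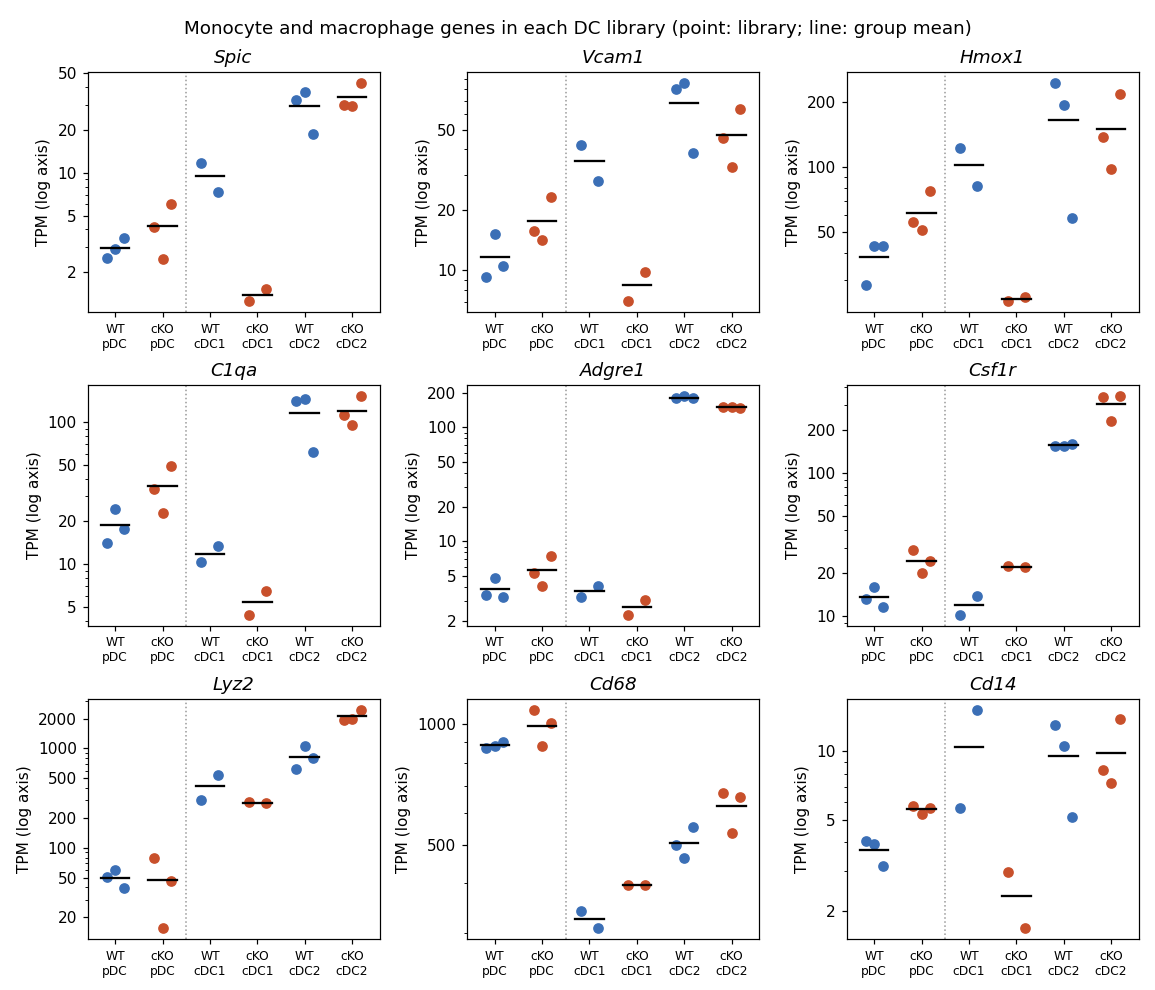
TPM of each gene (log axis) in each library, by group, with WT in blue, cKO in orange and the group mean as a line. The dotted line divides the pDC table from the cDC table, which were normalized separately. The cKO cDC1 libraries were the lowest of all for Spic (1.25 and 1.51 TPM), and Csf1r was higher in the cKO than in the WT libraries of each subset.

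In TRIM33-deficient cDC1s Spic and Vcam1 fell and Csf1r rose. These 3 of the 9 genes were called, where 22.4% of all genes tested were, 1806 higher and 749 lower (1067 and 1067 under median-of-ratios scaling, 1097 and 977 under quantile normalization). On the red pulp macrophage list, which holds Spic and Vcam1, Itgad was called higher in cDC1s (log2FC 1.39). Markers of the subsets moved in the same libraries. The cDC1 genes summed to 2518 to 2531 TPM in WT and 1809.99 to 1835 in cKO cDC1s, with Itgae (log2FC -2.7), Cadm1 (-1.74) and Clec9a (-1.33, called in 9 of 20 other settings) lower. The pDC genes summed to 171 to 186 TPM in WT and 268 to 272 in cKO cDC1s, with Tcf4 (log2FC 0.98, called in 11 of 20 other settings) and Bst2 (0.72) higher and Ccr9 (-0.97) lower. The cDC2 genes summed to 39.3 to 57.96 TPM in WT and 62.7 to 67.7 in cKO cDC1s, with Itgam and Clec10a (log2FC 1.72) higher and Esam (-2.29) lower. Their part in the levels of the 9 genes was not tested. In bulk libraries fewer cells of a type and less RNA per cell cannot be told apart. Relative to the median over all genes, the log2FC was -2.28 for Spic, -2.10 for Vcam1 and 0.67 for Csf1r. All 9 had cDC1 groups that did not overlap, as did 76.2% of all genes with 2 libraries a group. In cDC2s Csf1r and Lyz2 rose (2 of 9 called, 7.15% of all genes), and in pDCs 0 of 9 passed (1.05% of all genes). Subset markers moved in cKO cDC2s too, where 5 of the 8 cDC2 genes were called. Clec10a (log2FC 1.55), Mgl2 (1.14) and Itgam (1.03) were higher, and Esam (-1.17) and Irf4 (-1.08) lower. The cDC2 genes summed to 1392 to 1455 TPM in WT and 1320 to 1525 in cKO cDC2s. Of the cDC1 and pDC genes 0 were called there. The part of these shifts in the levels of the 9 genes was not tested. By limma at an unadjusted p under 0.05 there were 5 of 9 in pDCs, against 2352 of 11299 genes. With the replicate number as a block, which pairs the pDC libraries, calls over all genes went from 119 to 335 and those of the 9 stayed at 0. The groups did not overlap for 3 of the 9 in pDCs (27.5% of all genes), Csf1r, Cd14 and Hmox1, and for 3 of the 9 in cDC2s (35.5% of all genes), Csf1r, Lyz2 and Adgre1. Over the 9 genes the median log2FC was -1.0 in cDC1s, 0.13 in cDC2s and 0.49 in pDCs, beside medians over all genes of 0.17, -0.03 and -0.05.

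In cDC1s Spic had a level of 11.7 and 7.29 TPM in WT and of 1.25 and 1.51 TPM in cKO libraries. In cDC2s it stood at 32.4, 37.2 and 18.6 TPM in WT and at 29.98, 29.4 and 43 TPM in cKO libraries. The cDC1 groups were far apart, whereas those of cDC2s overlapped. Spic fell in cDC1s from 9.48 ± 3.1 to 1.38 ± 0.184 TPM (SD, n = 2 a group), a log2FC of -2.11 (adjusted p 0.000761, SE 0.31). Without cKO cDC1 library 1 the cDC1 log2FC was -2.03 with an adjusted p of 0.0103, just past the threshold. In cDC2s its log2FC was 0.24 (adjusted p 0.543, SE 0.26). In pDCs Spic was 2.53, 2.89 and 3.5 TPM in WT and 4.15, 2.48 and 6.0 TPM in cKO libraries, with a log2FC of 0.34 (adjusted p 0.482, SE 0.25), and these groups overlapped.

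Vcam1 went the same way in cDC1s. It was 42.1 and 27.9 TPM in WT and 7.03 and 9.79 TPM in cKO libraries, and it fell from 35.01 ± 10.04 to 8.41 ± 1.95 TPM (SD, n = 2 a group), a log2FC of -1.92 (adjusted p 0.00405, SE 0.40). The call was lost without WT cDC1 library 1, cKO cDC1 library 1 or cKO cDC1 library 2 (adjusted p 0.0348, 0.0408 and 0.0155). In cDC2s Vcam1 was 80.2, 85.9 and 38.3 TPM in WT and 45.4, 32.7 and 63.4 TPM in cKO libraries, with a log2FC of -0.49 (adjusted p 0.32, SE 0.32). WT library 3 lay inside the cKO range, and the other WT libraries lay above it. In pDCs Vcam1 was 9.32, 15.2 and 10.6 TPM in WT and 15.7, 14.2 and 23.2 TPM in cKO libraries, a log2FC of 0.55 (adjusted p 0.202, SE 0.22).

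Hmox1 was 123 and 82.3 TPM in WT cDC1s and 24.1 and 25.1 TPM in cKO cDC1s. The groups were apart, but the log2FC of -1.99 (adjusted p 0.0205, SE 0.58) missed the threshold in a fit that takes the spread from cDC1 and cDC2 libraries together. In cDC2s Hmox1 was 245, 193 and 58.1 TPM in WT and 137, 97.7 and 217 TPM in cKO libraries, a log2FC of 0.02 (adjusted p 0.978, SE 0.47), with WT library 3 the lowest and WT library 1 the highest of the 6. In a fit of the cDC1 libraries alone the adjusted p of Hmox1 in cDC1s was 0.000816, and without WT cDC2 library 3 it was 0.00113. Hmox1 was called in cDC1s in 3 of 20 other settings, which were these fits and the looser 0.05 threshold. Its cDC1 log2FC ranged from -2.27 to -1.70 over the 20. In pDCs Hmox1 was 28.6, 43.2 and 43.4 TPM in WT and 55.9, 51.4 and 77.7 TPM in cKO libraries. Every cKO pDC library was above every WT library, and the log2FC of 0.67 (adjusted p 0.109, SE 0.20) did not pass.

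C1qa was 10.3 and 13.3 TPM in WT and 4.4 and 6.48 TPM in cKO cDC1s, a log2FC of -1.0 (adjusted p 0.0583, SE 0.38). In cDC2s it was 139.7, 145 and 61.5 TPM in WT and 113, 94.95 and 152 TPM in cKO libraries. These groups overlapped, with a log2FC of 0.13 (adjusted p 0.81, SE 0.31). In pDCs C1qa was 13.97, 24.5 and 17.6 TPM in WT and 34, 22.8 and 48.7 TPM in cKO libraries, a log2FC of 0.85 (adjusted p 0.142, SE 0.28). C1qb and C1qc encode the other chains of C1q. Their log2FCs were -0.86 and -1.04 in cDC1s, 0.21 and 0.01 in cDC2s, and 0.85 and 0.82 in pDCs, and neither was called in any subset.

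Adgre1 separated the subsets more than the genotypes. WT cDC2s had 179.6, 187 and 179.8 TPM and cKO cDC2s 152, 152 and 147 TPM. The cKO libraries were all lower, yet the log2FC of -0.28 (adjusted p 0.0842, SE 0.10) was under the size threshold. In cDC1s Adgre1 was 3.25 and 4.04 TPM in WT and 2.28 and 3.07 TPM in cKO libraries, a log2FC of -0.34 (adjusted p 0.0528, SE 0.12). In pDCs it was 3.39, 4.75 and 3.23 TPM in WT and 5.24, 4.07 and 7.5 TPM in cKO libraries, a log2FC of 0.44 (adjusted p 0.283, SE 0.21). The pDC groups overlapped. Of the related receptor genes, Adgre4 rose in cDC2s, with a log2FC of 0.79 (adjusted p 0.00645, SE 0.15) and a call in 9 of 20 other settings, and Adgre5 (CD97) was called in no subset.

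Csf1r was higher in every cKO library than in every WT library of the same subset. In cDC2s it was 155, 154 and 161 TPM in WT and 345, 232 and 346 TPM in cKO libraries, and rose there from 157 ± 3.56 to 308 ± 65.6 TPM (SD, n = 3 a group), a log2FC of 0.94 (adjusted p 0.00326, SE 0.16). The cDC2 call was lost without WT library 1 or 2 or cKO library 1 or 3 (adjusted p 0.0111, 0.0120, 0.0142 and 0.0189, log2FC 0.85 to 0.94). In cDC1s it was 10.2 and 13.8 TPM in WT and 22.4 and 21.97 TPM in cKO libraries, and rose there from 12.01 ± 2.5 to 22.2 ± 0.276 TPM (SD, n = 2 a group), a log2FC of 0.85 (adjusted p 0.00636, SE 0.19). The cDC1 call was lost under median-of-ratios scaling (log2FC 0.68, adjusted p 0.0143), which set the median over all genes at 0.02, under quantile normalization (0.65, adjusted p 0.0210), and without WT cDC1 library 1 or cKO cDC1 library 1 or 2 (adjusted p 0.0554, 0.0444 and 0.0345). In pDCs Csf1r was 13.2, 15.98 and 11.6 TPM in WT and 29.2, 20 and 24.3 TPM in cKO libraries. The log2FC of 0.80 (adjusted p 0.0336, SE 0.16) did not pass there, nor with the replicate number as a block (adjusted p 0.0150).

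Lyz2 was 617, 1048 and 798 TPM in WT and 1945, 1981 and 2449 TPM in cKO cDC2s. The mean rose from 821 ± 216 to 2125 ± 281 TPM (SD, n = 3 a group), a log2FC of 1.4 (adjusted p 0.00288, SE 0.23), with all cKO libraries well above the WT libraries. Without cKO cDC2 library 3 it was 1.29 with an adjusted p of 0.0171. In cDC1s Lyz2 was 305 and 540.2 TPM in WT and 288 and 279.8 TPM in cKO libraries, a log2FC of -0.51 (adjusted p 0.166, SE 0.28), which was -0.10 without WT cDC1 library 2. In pDCs it was 50.6, 60.1 and 39.9 TPM in WT and 79.7, 15.6 and 46.9 TPM in cKO libraries, a log2FC of -0.34 (adjusted p 0.744, SE 0.50). The cKO pDC libraries held both the lowest and the highest value of that subset. Lyz1, a lysozyme gene of similar sequence, rose in cDC2s too, from 92.1 ± 15.8 to 184 ± 12.4 TPM (SD, n = 3 a group), a log2FC of 1.0 (adjusted p 0.00392, SE 0.17). How reads were divided between the pair is uncertain.

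Cd68 was the most abundant of the 9 genes in pDCs, at 872, 879.7 and 900.4 TPM in WT and 1085, 883 and 1006 TPM in cKO libraries. In cDC1s it was 341 and 309 TPM in WT and 396 and 396 TPM in cKO libraries, and in cDC2s 497, 462 and 555 TPM in WT and 674, 535 and 659 TPM in cKO libraries. Its log2FCs of 0.16 in pDCs, 0.29 in cDC1s and 0.30 in cDC2s (SE 0.08, 0.13 and 0.11) were all above 0 and under the size threshold.

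Cd14 was at most 15.2 TPM in any library. In cDC1s it was 5.65 and 15.2 TPM in WT and 2.95 and 1.68 TPM in cKO libraries, a log2FC of -1.67 (adjusted p 0.019, SE 0.48) that did not pass. In cDC2s it was 13, 10.53 and 5.18 TPM in WT and 8.29, 7.26 and 13.9 TPM in cKO libraries, a log2FC of 0.07 (adjusted p 0.923, SE 0.39). In cDC2s the groups overlapped, and the WT cDC1 libraries were far from each other. In pDCs Cd14 was 4.03, 3.93 and 3.15 TPM in WT and 5.77, 5.33 and 5.66 TPM in cKO libraries, which were apart, with a log2FC of 0.49 (adjusted p 0.0689, SE 0.12).

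**Figure D2:**
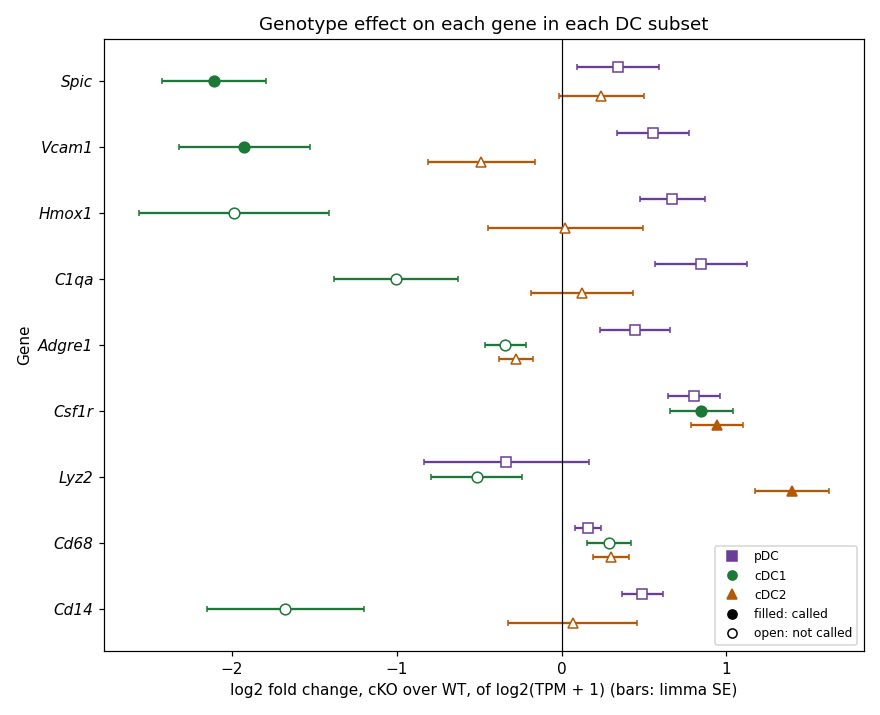
Log2FC of log2(TPM + 1), cKO over WT, for each gene in pDCs (squares), cDC1s (circles) and cDC2s (triangles), with limma SE bars. Filled points were called. Spic (-2.11) and Vcam1 (-1.92) in cDC1s are the called points left of 0, and Csf1r lies at 0.80 to 0.94 in all 3 subsets.

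The genotype effects in cDC1s and cDC2s were then tested against each other. The cDC1 effect minus the cDC2 effect was called for 1 of the 9 genes, Spic, at -2.35 (adjusted p 0.00784, SE 0.41) on the log2 scale, where 2.56% of all genes were called and the median over all genes was 0.22 (0.01 under median-of-ratios scaling, which turned 138 higher and 154 lower calls into 100 and 281). The call of Spic held in 7 of 19 other settings, with adjusted p values of 0.00464 to 0.0504. For Lyz2 the difference was -1.91 (adjusted p 0.0114, SE 0.36) and was called in 5 of the 19. The differences of Hmox1, -2.01 (adjusted p 0.103, SE 0.74), Cd14, -1.74 (adjusted p 0.0929, SE 0.61), Vcam1, -1.44 (adjusted p 0.0952, SE 0.51), and C1qa, -1.13 (adjusted p 0.15, SE 0.49), were not called. Those of Csf1r, -0.10 (adjusted p 0.804, SE 0.25), Cd68, -0.01 (adjusted p 0.965, SE 0.17), and Adgre1, -0.06 (adjusted p 0.8, SE 0.16), lay within their standard errors of 0. The pDC effect was not tested against these, since pDCs are in a separate table.

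The order of the group means differed between the genes. cKO cDC2s ranked highest for Csf1r, Lyz2, C1qa and Spic, and WT cDC2s for Vcam1, Hmox1 and Adgre1. For Spic, C1qa, Vcam1 and Hmox1 the libraries of the WT and cKO cDC2 groups overlapped, so these neighbours in the order do not differ beyond their spread. WT cDC1s ranked highest for Cd14 and cKO pDCs for Cd68. cKO cDC1s ranked lowest for 6 genes (Spic, Vcam1, Hmox1, C1qa, Adgre1 and Cd14), WT cDC1s for Csf1r and Cd68 and cKO pDCs for Lyz2. The highest mean was 68.1 times the lowest for Adgre1, 44.8 for Lyz2, 25.6 for Csf1r, 24.7 for Spic and 22.04 for C1qa. It was 8.1 times the lowest for Vcam1, 6.74 for Hmox1, 4.51 for Cd14 and 3.05 for Cd68. The pDC means enter this order from a table with its own normalization.

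How the red pulp genes stood to each other within a library was described by their ratio to C1qa, which does not move with a scaling of the whole library. C1qb over C1qa lay at 0.81, 0.907 and 1.07 in WT pDCs, 0.791 and 0.903 in WT cDC1s and 0.77, 0.849 and 0.845 in WT cDC2s. Hmox1 over C1qa lay at 11.9 and 6.17 in WT cDC1s, 5.47 and 3.87 in cKO cDC1s, 1.76, 1.33 and 0.945 in WT cDC2s and 2.05, 1.76 and 2.46 in WT pDCs. Vcam1 over C1qa lay at 4.08 and 2.09 in WT cDC1s, 1.6 and 1.51 in cKO cDC1s, 0.574, 0.593 and 0.622 in WT cDC2s and 0.667, 0.621 and 0.599 in WT pDCs. Spic over C1qa lay at 1.13 and 0.546 in WT cDC1s, 0.284 and 0.233 in cKO cDC1s and 0.232, 0.257 and 0.303 in WT cDC2s. All 3 ratios were highest in WT cDC1s and did not overlap there with any other group. Slc40a1, the iron exporter, over C1qa lay at 0.376 and 0.439 in WT cDC1s and 0.405, 0.334 and 0.193 in WT cDC2s. These ratios are descriptions with no test.

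**Figure D3:**
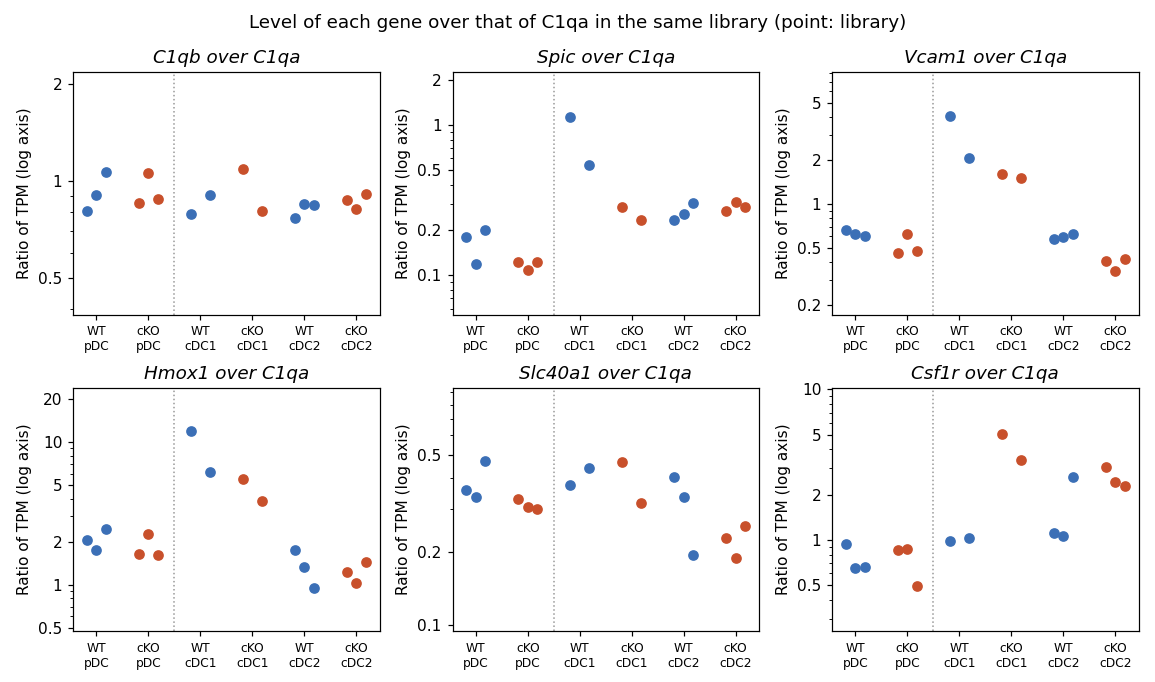
Ratio of the TPM of a gene to that of C1qa in the same library (log axis), with WT in blue and cKO in orange. C1qb over C1qa spans 0.770 to 1.09 over all libraries, whereas Hmox1 over C1qa reaches 11.9 and 6.17 in WT cDC1s and at most 1.76 in WT cDC2s.

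WT cDC2 library 3 stood apart from the other WT cDC2 libraries for a block of macrophage genes, a pattern seen in the values and given without a test. Taken as (TPM + 1) over the mean of libraries 1 and 2, it had 0.268 for Hmox1, 0.436 for C1qa, 0.467 for Vcam1, 0.484 for Cd14 and 0.549 for Spic, all among the lowest 5% of genes tested. Its ratios for Csf1r (1.04), Adgre1 (0.98), Lyz2 (0.959) and Cd68 (1.16) were near 1. The iron exporter gene Slc40a1 (0.241), Cd5l (0.289), Marco (0.16) and Mrc1 (0.428) were as low, and 9 of 12 red pulp macrophage genes were in the lowest 5%. So were 7 of 7 tested erythroid genes. For Hbb-bt, of these, library 2 was the high one, with a ratio to the other WT libraries of 7.20. Library 1 (0.173) was lower still for this gene than library 3 (0.319). cKO cDC2 library 3 lay the other way for the macrophage genes, with 6 of the 9 genes and 9 of 12 red pulp genes in the highest 5%, and with 4 of 7 erythroid genes in the lowest 5%. In cKO pDC library 3 it was 5 of the 9, 8 of 12 and 6 of 8 erythroid genes in the highest 5%. Without WT cDC2 library 3 the cDC2 log2FCs were -0.61 for Hmox1 (adjusted p 0.166), -0.85 for Vcam1 (adjusted p 0.0452) and -0.27 for C1qa (adjusted p 0.368), and Csf1r and Lyz2 kept their calls. Without it 6 of the 9 genes were called in cDC1s, with Hmox1, Cd14 and C1qa added. Calls over all genes in cDC1s rose as well, from 2555 of 11411 tested to 2888 of 11391.

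**Figure D4:**
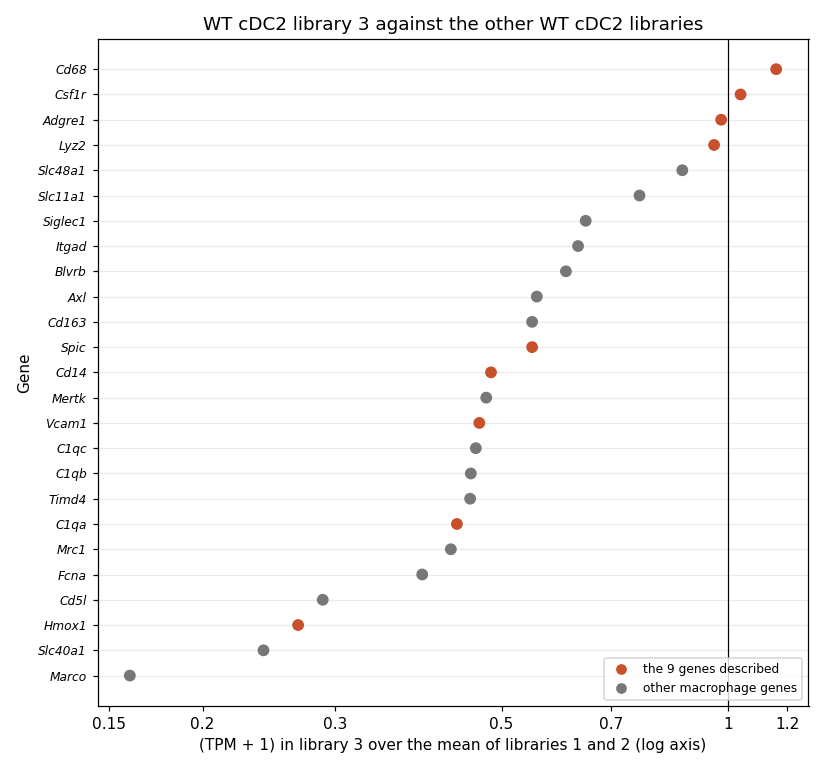
(TPM + 1) in WT cDC2 library 3 over the mean of WT cDC2 libraries 1 and 2 (log axis) for the 9 genes (orange) and further macrophage genes (grey). Csf1r, Adgre1, Lyz2 and Cd68 lie near 1 and the other 5 of the 9 genes between 0.268 and 0.549.

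Of the other genes of the red pulp macrophage list, Slc40a1, Cd5l (a scavenger protein of tissue macrophages), Fcna (ficolin A) and Cd163 (the hemoglobin-haptoglobin receptor) were called in no subset, nor were Blvrb, Slc48a1, Slc11a1 and Adgre1. In cDC1s the log2FCs were -0.92 for Slc40a1, -0.89 for Cd5l, -1.33 for Fcna, -0.87 for Slc11a1, 0.33 for Cd163, 0.49 for Blvrb and 0.13 for Slc48a1. Fcna went from 7.0 ± 0.516 to 2.18 ± 0.269 TPM (SD, n = 2 a group, adjusted p 0.0291) and Cd163 from 1.01 ± 0.177 to 1.52 ± 0.042 TPM. Of the 12 genes of the list 3 were called in cDC1s (Spic and Vcam1 lower, Itgad higher), 1 in cDC2s and 1 in pDCs (Itgad higher in each). The shares called over all genes were 22.4% in cDC1s, 7.15% in cDC2s and 1.05% in pDCs. The median log2FC over these 12 was -0.88 in cDC1s, 0.01 in cDC2s and 0.39 in pDCs. The summed level of the list was 310.4 to 398 TPM in WT and 179.9 to 181 in cKO cDC1s, 433 to 816 in WT and 504 to 765 in cKO cDC2s, and 225 to 263 in WT and 273 to 363 in cKO pDCs, with 0 of its 12 genes at 0 in any group. The part that macrophages in the sort play in these levels was not tested.

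On the macrophage list of 27 genes, 4 of 26 tested were called in cDC1s, where 22.4% of all genes were. Cd63, a tetraspanin of late endosomes, fell from 78.5 ± 39.4 to 7.75 ± 4.94 TPM (SD, n = 2 a group), a log2FC of -3.21 (adjusted p 0.000671, SE 0.47). Apoe, an apolipoprotein that macrophages secrete, fell in cDC1s, with -2.49 (adjusted p 2.49e-05, SE 0.19), and in cDC2s, with -0.81 (adjusted p 0.00604, SE 0.15). The call of Apoe in cDC2s held in 10 of 20 other settings. In cDC2s 6 of 26 were called, where 7.15% of all genes were, and Fcgr1 (CD64), with 1.15 (adjusted p 0.00789, SE 0.23), and Msr1 (a scavenger receptor), with 1.34 (adjusted p 0.00247, SE 0.21), rose beside Lyz2, Csf1r and Itgam. The call of Fcgr1 held in 9 of 20 other settings. Fcgr1 and Msr1 stood at 8.56 ± 2.41 and 8.41 ± 1.18 TPM in cKO cDC2s (SD, n = 3 a group). In pDCs 1 of 21 was called, Itgam, where 1.05% of all genes were, and with the replicate block Axl too. The summed level of the list was 3133 to 3260.2 TPM in WT and 2643 to 2663 in cKO cDC1s, 2524 to 3034 in WT and 3794 to 4950.1 in cKO cDC2s, and 4458 to 4615 in WT and 4264 to 4658 in cKO pDCs. Vsig4 was at 0 in both cKO cDC1 libraries.

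Itgam (CD11b) and Itgad (CD11d) flank Itgax on chromosome 7 (GRCm38.p6), with Itgam at 128062640 to 128118491, Itgax at 128129526 to 128150657 and Itgad at 128173933 to 128205504. The promoter of Itgax drives the Cre transgene. Both were called higher in all 3 subsets, although the pDC call of Itgad held in 6 of 14 other settings and was lost without any 1 of the 6 pDC libraries. Itgam had log2FCs of 2.92 (adjusted p 0.000952) in pDCs, 2.1 (adjusted p 4.33e-05) in cDC1s and 1.03 (adjusted p 0.00134) in cDC2s, and Itgad of 0.86 (adjusted p 0.00566), 1.39 (adjusted p 0.00187) and 1.92 (adjusted p 0.000309). Without this pair, the macrophage and red pulp lists together had 0 of 29 called in pDCs (1, Axl, with the replicate block), 5 of 34 in cDC1s and 5 of 34 in cDC2s. The shares called over all genes were 1.05% in pDCs, 22.4% in cDC1s and 7.15% in cDC2s. Whether the transgene carries Itgam and Itgad was not tested.

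On the monocyte list 10 of 17 tested were called in cDC1s, 8 higher and 2 lower, where 22.4% of all genes were, and 8 of 17 in cDC2s, 7 higher and 1 lower, where 7.15% were. In cDC1s Ccr2 (the receptor that lets monocytes leave the marrow), with 2.1 (adjusted p 0.00153, SE 0.36), Spn (CD43), with 1.96 (adjusted p 6.05e-05, SE 0.17), and Ms4a4c, with 1.68 (adjusted p 0.000203, SE 0.19), rose, and Treml4, with -1.28 (adjusted p 0.000536, SE 0.18), fell. Ly6c2, with 1.4 (adjusted p 0.00386, SE 0.29), and Cx3cr1 (the fractalkine receptor), with 1.39 (adjusted p 0.00929, SE 0.34), rose as well, but the call of Cx3cr1 held in 3 of 20 other settings (log2FC 0.79 to 1.99). In cDC2s Ace rose with 1.83 (adjusted p 0.00519, SE 0.33), Cx3cr1 with 1.58 (adjusted p 0.00434, SE 0.28), Ccr2 with 1.5 (adjusted p 0.00682, SE 0.29) and Ly6i with 1.44 (adjusted p 0.00265, SE 0.23), while Eno3 fell in both subsets, with -0.96 (adjusted p 0.00554, SE 0.21) in cDC1s and -0.82 (adjusted p 0.00963, SE 0.17) in cDC2s, the latter in 5 of 20 other settings. In cDC1s Ccr2 went from 15.7 and 31.6 TPM in WT to 108 and 90.6 TPM in cKO libraries. Over the 17 monocyte genes the median log2FC was 0.85 in cDC1s, 0.77 in cDC2s and 0.17 in pDCs. Itgam alone of 17 was called in pDCs, where 1.05% of all genes were. The summed level of the 20 genes was 1768 to 2757 TPM in WT and 1921 to 1974 in cKO cDC1s, 2768 to 5244 in WT and 2936 to 3134 in cKO cDC2s and 9956 to 10650.5 in WT and 10906 to 11206 in cKO pDCs, whose ranges did not overlap.

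The genes that act with the 9 were taken by pathway. In heme and iron handling 3 of 21 genes were called in cDC1s, beside 22.4% of all genes, with Tfrc (the transferrin receptor, 0.97) and Bach2 (0.88, called in 9 of 20 other settings) higher and Ftl1 (ferritin light chain, -0.70) lower. Those called in cDC2s were 2 of 21, beside 7.15% of all genes, Nfe2l2 (the transcription factor NRF2, which activates Hmox1, 0.62) higher and Flvcr1 (a heme exporter, -0.80) lower, and in pDCs 0 of 21. Bach1 was called in no subset and had log2FCs of 0.01 in cDC1s, -0.19 in cDC2s and -0.35 in pDCs. Of the PU.1 subfamily, Spi1 (PU.1), at 593 and 512 TPM in WT and 599 and 609 TPM in cKO cDC1s, had log2FCs of 0.13, 0.12 and 0.21 in cDC1s, cDC2s and pDCs, and Spib of -0.02, 0.16 and -0.02. Neither was called, so Spic was the called member of the 3 in cDC1s.

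The calls on the next lists stand beside 22.4% of all genes called in cDC1s, 7.15% in cDC2s and 1.05% in pDCs. Among complement genes Cfp (properdin) rose in cDC1s, with a log2FC of 0.63, and in pDCs, with 0.67, the latter in 4 of 14 other settings. Among 16 tested genes of the CSF1 receptor axis Csf1r alone was called in cDC1s and in cDC2s, and 0 in pDCs. The ligand genes Csf1, at 3.33 ± 2.41 TPM in WT cDC1s, and Il34, which was at 0 in both WT cDC1 libraries, were low. Among 14 genes of CD14 and TLR4 signalling tested in cDCs, Itgam (2.1) and Ticam2 (0.75) rose and Ly96 (MD-2, the partner of TLR4, -1.11) fell in cDC1s, and Itgam alone was called in cDC2s and, of 13, in pDCs. Among 10 genes of lysozyme and the lysosomal membrane, Cd63 was called in cDC1s, Lyz2 and Lyz1 in cDC2s and 0 in pDCs. Among 8 tested genes of VCAM1 and integrin partners, Vcam1 fell and Itgb7 (1.19) and Icam2 (0.82) rose in cDC1s, and 0 were called in cDC2s and in pDCs. Itga4, the integrin chain that binds VCAM1, had -0.65 (adjusted p 0.0122) in cDC2s.

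Markers of other cells that a spleen sort could hold were read beside these results. The summed erythroid genes stood at 386 to 3193 TPM in WT and 1008 to 1252 in cKO cDC1s, and at 1274 to 10744 in WT and 1529 to 2302 in cKO cDC2s, with 0 of 7 tested called in either subset. The neutrophil genes summed to 3.88 to 18.8 TPM in WT and 25 to 44.5 in cKO cDC1s and to 32.5 to 60.95 in WT and 59.6 to 107 in cKO cDC2s, with 0 called and Ly6g at 0 in both WT cDC groups. In pDCs the neutrophil genes summed to 13.2 to 32.8 TPM in WT and 34.6 to 144 in cKO libraries, with 0 called. The erythroid genes summed there to 1719 to 6171 TPM in WT and 1322 to 6387 in cKO libraries, with 0 called. The B cell genes summed to 164 to 196 TPM in WT and 67.4 to 71.7 in cKO cDC1s, where 2 of 7 were called lower (Fcrla and Ms4a1), and to 452 to 591 in WT and 577 to 708 in cKO pDCs. In cDC2s 4 of 7 were called, Fcrla higher and Blk, Ms4a1 and Cr2 lower. The shares called over all genes were 22.4% in cDC1s, 7.15% in cDC2s and 1.05% in pDCs. In pDCs Blk of the B cell list and Lat of the T cell list were called higher. In cDC2s Pecam1, an endothelial gene, was called lower (in 8 of 20 other settings). T cell genes reached at most 60.7 TPM in any library, NK cell genes 8.99 and platelet genes 7.02. Their part in the levels of the 9 genes was not tested.

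Likeness of pattern was described by Pearson's r of log2(TPM + 1) over the 10 cDC libraries, which share subset and genotype, so libraries of a group are not independent points. The genes nearest to Spic were Tmem86a (0.987), Tmem176a (0.979), B2m (0.975), Il21r (0.970) and Sdhaf1 (0.969). Those nearest to Csf1r were Ifitm3 (0.998), Ralgds (0.995), Itgb3 (0.995), Lrp1 (0.995) and Tent5a (0.993), and those nearest to Hmox1 were Vcam1 (0.958), Rab38 (0.957), Stab2 (0.931), Nuak1 (0.922) and Bcl2a1c (0.918). Among the 9 genes, Hmox1 had an r of 0.909 with Spic and of 0.555 with Csf1r, and Csf1r had 0.950 with Adgre1, 0.949 with Cd68 and 0.416 with Cd14.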

How the data were processed

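TPM and FPKM values per gene were deposited by the authors in separate tables for pDCs and cDCs. Reads (BGISEQ-500, 50 bases from one end) were cleaned with SOAPnuke by the authors and, per the submitters' processing notes, handled with HISAT2 2.0.4, Bowtie2 2.2.5 and RSEM 1.2.12 against mm10. TPM sums to a fixed total over the genes of a table, so a change in abundant genes shifts all others, and no test was made across the tables. RefSeq (GRCm38.p6) gave a symbol to 17079 of the 17128 pDC gene IDs and to 17667 of the 17721 cDC gene IDs. Groups and replicate numbers came from the sample titles.

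Genes with a mean of at least 1 TPM were tested (11299 in pDCs, 11411 in cDCs). Since the values are not counts, limma 3.58.1 (R 4.3.3; lmFit, eBayes with a mean-variance trend, two-sided) was fitted to log2(TPM + 1), with the authors' thresholds. On this scale low genes appear to change less than they do. One fit took the 6 pDC libraries and another all 10 cDC libraries, whose 4 groups shared 1 estimate of the spread. The fits were tested on simulated data with known changes. Depth was estimated from the spacing of low FPKM values of single-exon genes. Replicates of a group correlated at r = 0.991 to 0.997 across genes, which are not independent, and 0 pairs were identical. Same-numbered WT and cKO pDC libraries deviated together from their group means (r = 0.310, 0.392 and 0.206 across genes), so the replicate number was taken to pair pDC libraries, while same-numbered cDC1 libraries (-0.233) and cDC2 libraries (-0.249, 0.253 and -0.165) did not.

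The alternatives were a pseudocount of 0.1, no filter, FPKM, median-of-ratios scaling, quantile normalization, eBayes without a trend, a replicate block, an adjusted p of at most 0.05, each cDC subset fitted alone, and leaving out each library. The 9 genes, the gene lists (macrophage, red pulp macrophage, monocyte, complement, heme and iron, CSF1 receptor axis, CD14 and TLR4, lysozyme and lysosomal membrane, VCAM1 and integrin partners, PU.1 subfamily, adhesion receptors, and markers of other cells) and the comparisons were chosen with earlier results of these data known. From each list the genes called in a genotype comparison were named, up to 5 by size per comparison, beside the C1q genes, Spi1, Spib, Bach1, Slc40a1 and Trim33. Other genes named, among them Cd163, Cd5l, Fcna, Blvrb, Slc48a1, Slc11a1, Marco, Mrc1, Csf1, Il34, Itga4, Adgre5, Treml4, Ly6c2 and Cx3cr1, were chosen after their values were seen. A few genes of the lists are not reported here by name. Summaries and plots were made with Python 3.11.15, pandas 2.3.3, numpy 2.4.6 and matplotlib 3.10.9.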

Additional observations from a re-analysis of the deposited data

Results flagged for a closer look

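The genotype effect on Spic differed between the cDC subsets by the test of the difference, at -2.35 (adjusted p 0.00784, SE 0.41) on the log2 scale (cDC1 effect minus cDC2 effect, limma). The call held in 7 of 19 other settings and was lost, among others, without the filter on low values and under quantile normalization. Spic was lower in 2 of 2 cKO cDC1 libraries than in both WT libraries, and the cDC2 groups overlapped.

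For Hmox1 and Cd14 every cKO pDC library lay above every WT pDC library, while every cKO cDC1 library lay below every WT cDC1 library. The log2 fold change of Hmox1 was 0.67 in pDCs and -1.99 in cDC1s, and that of Cd14 was 0.49 in pDCs and -1.67 in cDC1s. Neither gene was called in either subset. The difference between pDCs and cDC1s was not tested, since their tables were normalized separately. Groups of 2 or 3 libraries are too small for a test of single outlying values.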

How the results depend on the processing

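Of 828 log2 fold changes of the 9 genes under other settings, 749 kept both direction and side of the threshold, 46 lost a call, 15 gained it and 18 turned direction. In pDCs 0 of the 9 genes were called, and 1 (Csf1r) at the looser 0.05 threshold. In cDC1s 3 were called, 1 without the filter on low values, 5 at the 0.05 threshold and 5 with cDC1s fitted alone. For the difference between the cDC effects 1 was called, 0 without the filter, 0 under quantile normalization, 2 with median-of-ratios scaling and 2 at the 0.05 threshold. With 1 library left out, the counts were 0 in every fit of pDCs, 0 to 6 in cDC1s, 0 to 2 in cDC2s, 0 to 2 for the difference and 4 to 6 for WT cDC2s over WT cDC1s, and a lone cDC1 library was then assumed to vary like the other groups. The 0 in cDC1s came without cKO library 1 (1 without cKO library 2, 6 without WT cDC2 library 3), and in cDC2s the count was 0 without cKO library 3 and 1 without cKO library 1, WT library 1 or WT library 2.

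With the replicate number as a block the pDC count stayed at 0, with Axl gained on the macrophage list, and the count for the difference fell from 1 to 0. In cDC1s Csf1r lost its call under the block (adjusted p 0.0118), leaving 2 of the 9, and in cDC2s the count of 2 did not move. The numbers pair no cDC libraries, so this is no measure of a weaker effect. With the cDC1 numbers crossed, a block chosen after seeing the data, the counts were 2 in cDC1s and 0 for the difference.

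All 18 values that turned direction were uncalled and came from leaving out 1 library. Each range given with them is over all the other settings. In pDCs Lyz2 was at 0.30 without cKO pDC library 2, in a range of -0.84 to 0.30. In cDC2s Spic was at -0.047 without WT cDC2 library 3, in a range of -0.047 to 0.43. Cd14 was at -0.19 without cKO cDC2 library 3 and -0.28 without WT cDC2 library 3, in a range of -0.28 to 0.31. C1qa was at -0.057 without cKO cDC2 library 3 and -0.27 without WT cDC2 library 3, in a range of -0.27 to 0.34. Hmox1 was at -0.28 without cKO cDC2 library 3 and -0.61 without WT cDC2 library 3, in a range of -0.61 to 0.42. For the difference Csf1r was at 0.0010 without cKO cDC2 library 3 and 0.10 without WT cDC1 library 2, in a range of -0.29 to 0.10. Cd68 was at 0.048 without cKO cDC2 library 1, 0.032 without cKO cDC2 library 3, 0.058 without WT cDC1 library 1 and 0.048 without WT cDC2 library 2, in a range of -0.12 to 0.058. Adgre1 was at 0.091 without cKO cDC1 library 1 and 0.059 without WT cDC1 library 2, in a range of -0.22 to 0.091. For WT cDC2s over WT cDC1s Cd14 was at 0.59 without WT cDC1 library 2 and 0.29 without WT cDC2 library 3, in a range of -0.70 to 0.59. The macrophage and red pulp lists together had 7 genes called in cDC1s (3 to 14 under other settings), 7 in cDC2s (2 to 9), 2 in pDCs (1 to 4), 3 for the difference (0 to 8) and 29 for the WT subsets (21 to 31). Under the main settings the shares over all genes were 22.4% in cDC1s, 7.15% in cDC2s and 1.05% in pDCs. They were 2.56% for the difference and 31.7% for the WT subsets. The causes were not tested.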
